A study of Mus musculus with 8 samples.

Results

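Langerhans cells are the dendritic cells of the epidermis, and a small set of transcripts describes them and the mature state they share with other dendritic cells. The set comprised 10 genes, chosen by name and matched to the array by gene symbol, out of 18193 genes with a probe set of their own. Cd207 (langerin), Epcam and Itgax (CD11c) mark Langerhans or dendritic cells, Flt3 is a receptor of their precursors, Fscn1 and Ccr7 serve the mature, migrating cell, and Cd80, Cd83, Cd86 and Cd40 are surface molecules of activation. The 10 genes were measured by 20 probe sets.

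The samples were dorsal skin of Balb/c mice in a model of atopic dermatitis driven by the hapten DNCB. DNCB+HY209 skin (3 arrays) received DNCB for 15 days and a PEG gel with 5% HY209, a compound that activates GPCR19, a receptor for bile acids, over the last 7 days. DNCB skin (3 arrays) received DNCB for 15 days with vehicle over the last 7 days. Sham skin (2 arrays) had neither agent by its titles and source names, but the protocol text attached to it describes DNCB application, a doubt that bears on each comparison with sham. The sources used here give neither the age of the mice nor whether each array stands for its own animal. The p-values therefore cover only the spread between samples, which may be technical. Each array gives a log2 signal per probe set, and the array medians, from 4.07 to 4.22, serve below as the mark between low and higher signals, because no detection calls were used. The bacterial spike-in signal, a control of hybridization, was 10.30 to 11.26 in DNCB+HY209, 9.67 to 11.21 in DNCB and 11.35 to 12.01 in sham skin. It was thus lower on every DNCB-treated array than on both sham arrays. The ratio of the 3' to the 5' Gapdh control signal, a mark of RNA integrity, was 2.31 to 3.24 in DNCB+HY209, 2.1 to 7.35 in DNCB and 2.81 to 4.46 in sham skin. It was highest on DNCB array 3 and next on sham array 1, and its part in the differences was not tested. The keratin genes Krt5 and Krt14 averaged 12.43 and 13.64 in DNCB+HY209, 12.45 and 13.79 in DNCB and 12.27 and 12.55 in sham skin, as a tissue with epidermis.

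Langerhans cells sit between keratinocytes, bind their neighbours through adhesion molecules and sample antigen from the skin surface. On contact with a hapten and the alarm cytokines of keratinocytes they loosen, raise surface molecules that co-stimulate T cells, and follow chemokines through lymph vessels to the draining lymph node. Fascin, the product of Fscn1, bundles actin in the dendrites of the mature cell, and CCR7, the product of Ccr7, is the receptor that guides it to the node. In whole skin, fewer cells of a type and less RNA per cell cannot be told apart.

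Most of these transcripts gave low signals in whole skin. Of the 20 probe sets, 10 lay below the array median on all 8 arrays, 6 lay above it on all 8, and 4 did so on some. A gene was tested if a probe set lay above the array median on at least 2 arrays. Epcam, Fscn1, Cd86, Cd40 and Itgax were tested, and Cd207, Ccr7, Cd80, Cd83 and Flt3 were not, so 5 of the 10 genes are described by values alone. Cd86 passed through the DNCB-treated arrays only, since both sham arrays lay below their medians.

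**Figure D1:**
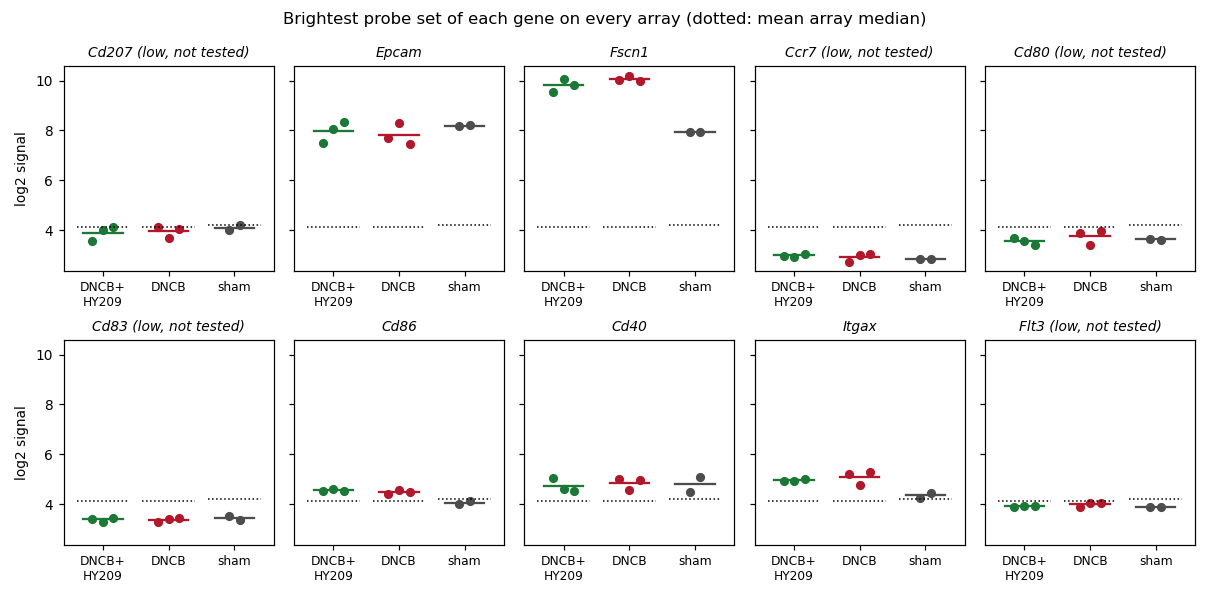
Log2 signal of the brightest probe set of each of the 10 genes on every array (points), with group means (solid lines) and the mean array median of the group (dotted lines). Fscn1 stands higher on all DNCB+HY209 and DNCB arrays than on both sham arrays, and the genes marked low lie at or below the dotted line.

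The defining Langerhans marker was among the low ones. Cd207, the lectin that forms Birbeck granules, had log2 signals of 3.58, 4.0 and 4.13 in DNCB+HY209 skin, 4.13, 3.68 and 4.03 in DNCB skin and 4.0 and 4.19 in sham skin. Its probe set exceeded the array median on 1 array only, DNCB+HY209 array 3, and the 3 groups overlapped. Its rank among all probe sets of an array ran from the 37.4th to the 50.9th percentile. In a fit of all genes without the filter on low signals, the log2 difference of Cd207 was -0.04 for DNCB+HY209 against DNCB (95% interval -0.49 to 0.40), -0.20 for DNCB+HY209 against sham (-0.69 to 0.30) and -0.15 for DNCB against sham (-0.65 to 0.34). These signals lay at or below the middle of the arrays, so the label of the gene set rests on the genes' known roles and not on a measured Langerhans cell signal.

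Epcam, an adhesion molecule of Langerhans cells and of hair follicle and other epithelia, gave clear signals. Its brighter probe set had 7.49, 8.07 and 8.34 in DNCB+HY209 skin, 7.69, 8.31 and 7.47 in DNCB skin and 8.18 and 8.21 in sham skin. The DNCB+HY209 and DNCB arrays spread widely on either side of the closely placed sham pair. The log2 difference was 0.14 (SE 0.29, adjusted p = 1) for DNCB+HY209 against DNCB, -0.23 (SE 0.33, adjusted p = 0.682) for DNCB+HY209 against sham and -0.37 (SE 0.33, adjusted p = 0.55) for DNCB against sham. The second probe set, of a type that can bind related transcripts, had 6.23, 6.30 and 6.38 in DNCB+HY209 skin, 6.24, 6.19 and 6.50 in DNCB skin and 6.40 and 6.91 in sham skin. It too was not called, and on it all DNCB+HY209 arrays lay below both sham arrays.

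Epcam has other sources in skin. All 12 markers of basal epidermis and hair follicle epithelium were tested, with a mean log2 signal of 7.61 to 8.34 in DNCB+HY209, 7.01 to 8.10 in DNCB and 8.25 to 8.69 in sham skin. In DNCB against sham 1 of them fell and 0 rose by limma, where 57 and 170 of all 12420 genes did. By sign alone 8 were lower and 4 higher, among the latter Krt14 by 1.24 without overlap (SE 0.40, adjusted p = 0.178). The marker that fell was Krt15, a keratin of follicle stem cells and basal cells, with 8.88 ± 0.55 (SD, n = 3) in DNCB and 11.70 ± 0.67 (n = 2) in sham skin, a log2 difference of -2.82 (SE 0.52, adjusted p = 0.0365). None passed in DNCB+HY209 against sham, where again 8 were lower and 4 higher, with -2.73 for Krt15 (SE 0.52, adjusted p = 0.0622) and -1.03 for the follicle stem cell gene Lgr5 (adjusted p = 0.173; -0.66 without sham array 2). The part of epithelial content in the Epcam values was not tested.

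Fscn1 was the gene of the set that changed. Its brightest probe set, 1416514_a_at, had log2 signals of 9.53, 10.06 and 9.84 in DNCB+HY209 skin, 10.01, 10.20 and 9.99 in DNCB skin and 7.95 and 7.94 in sham skin. Every DNCB+HY209 and DNCB array lay far above both sham arrays, and the DNCB+HY209 and DNCB arrays overlapped. The mean was 9.81 ± 0.27 (SD, n = 3) in DNCB+HY209, 10.06 ± 0.12 (n = 3) in DNCB and 7.95 ± 0.01 (n = 2) in sham skin. Fscn1 rose in DNCB against sham by 2.11 on the log2 scale (SE 0.23, adjusted p = 0.00593), a 4.33-fold difference in signal. It rose in DNCB+HY209 against sham by 1.86 (SE 0.23, adjusted p = 0.0156), which is 3.63-fold. These comparisons share the sham arrays.

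The other probe sets of Fscn1 differed less. Probe set 1448378_at had 6.91, 7.42 and 7.54 in DNCB+HY209 skin, 7.27, 7.75 and 7.12 in DNCB skin and 6.37 and 6.47 in sham skin. Again all DNCB+HY209 and DNCB arrays exceeded the sham arrays, but in a fit of all probe sets its log2 differences of 0.87 against sham in DNCB+HY209 (adjusted p = 0.22) and 0.96 in DNCB (adjusted p = 0.208) did not pass. Probe set 1416516_at lay near the array medians, with 3.91 to 4.23 in DNCB+HY209, 3.89 to 4.26 in DNCB and 3.21 to 3.88 in sham skin. Probe set 1416515_at lay below the median on all 8 arrays, and its groups overlapped. With the probe sets above the filter averaged, the log2 difference of Fscn1 was 1.10 in DNCB+HY209 against sham (adjusted p = 0.0894) and 1.20 in DNCB against sham (adjusted p = 0.042).

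**Figure D2:**
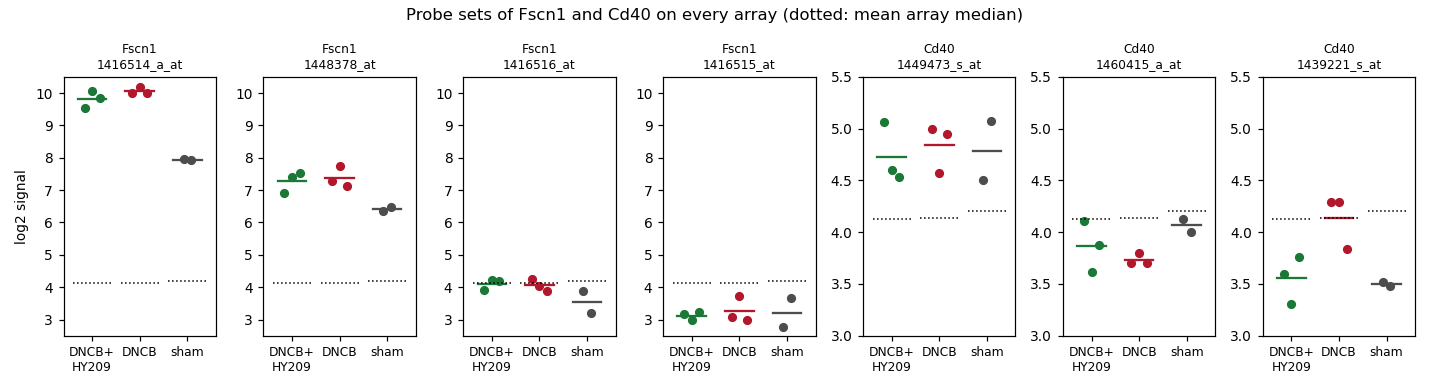
Log2 signal of the 4 probe sets of Fscn1 (left, common axis) and the 3 probe sets of Cd40 (right, narrower common axis) on every array (points), with group means (solid) and mean array medians (dotted). The gap between both DNCB-treated groups and sham is largest on 1416514_a_at and smaller on the other Fscn1 probe sets. On 1439221_s_at of Cd40 the DNCB+HY209 arrays lie below the DNCB arrays.

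The Fscn1 call in DNCB+HY209 against sham was lost in the limma fit when any of 4 single arrays was left out, with an adjusted p of 0.0746 (sham array 1), 0.0929 (sham array 2), 0.127 (DNCB+HY209 array 2) and 0.0708 (DNCB+HY209 array 3). In DNCB against sham, leaving out sham array 2 gave a log2 difference of 2.11 with an adjusted p of 0.0572, and no other single array ended the call. With the arrays of lowest and highest spike-in signal removed together, DNCB array 2 and its sham counterpart of that number, it was 2.04 with an adjusted p of 0.138. With any 1 array left out, the difference itself ran from 1.74 to 2.00 in DNCB+HY209 against sham and from 2.05 to 2.15 in DNCB against sham.

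Fascin is also made by endothelial cells, whose markers differed in the same direction. All 8 endothelial markers were tested, and their mean log2 signal was 5.37 to 5.86 in DNCB+HY209, 5.96 to 6.57 in DNCB and 4.86 to 5.02 in sham skin, with no overlap between any pair of groups. In DNCB against sham 5 of 8 rose by limma, where 1.37% of all genes did. Among the 5 were the endothelial cadherin Cdh5 at 2.20 (SE 0.34, adjusted p = 0.023), Emcn at 1.86 (SE 0.36, adjusted p = 0.0414), Plvap at 1.83 (SE 0.36, adjusted p = 0.0432) and Egfl7 at 1.22 (SE 0.20, adjusted p = 0.0274). Both sham signals of Emcn, 3.41 and 2.82, lay below the array medians, so Emcn passed the filter through the DNCB-treated arrays and the size of its difference is uncertain. In DNCB+HY209 against sham 0 of 8 passed, with differences of 1.20 for Cdh5 (SE 0.34, adjusted p = 0.152) and 1.13 for Plvap (SE 0.36, adjusted p = 0.184). Between DNCB+HY209 and DNCB 0 of 8 passed and all 8 were lower in DNCB+HY209. Of these 4 were lower without overlap, where 2.17% of all genes were. The differences were -1.0 for Cdh5 (SE 0.30, adjusted p = 1) and -0.88 for Emcn (SE 0.32, adjusted p = 1). The part of endothelial content and of the spike-in difference in the Fscn1 result was not tested by a separate measurement. With the spike-in signal as a covariate, Fscn1 differed by 1.65 in DNCB+HY209 against sham (adjusted p = 0.0925) and by 1.91 in DNCB against sham (adjusted p = 0.0375).

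Itgax, the integrin chain of dendritic cells that some macrophages also carry, was higher on all DNCB-treated arrays without passing the test. Its probe set had 4.93, 4.93 and 4.99 in DNCB+HY209 skin, 5.22, 4.77 and 5.27 in DNCB skin and 4.25 and 4.45 in sham skin. The lowest DNCB-treated array, DNCB array 2, exceeded the higher sham array, and the DNCB+HY209 arrays lay within the range of the DNCB arrays. The log2 difference was 0.61 for DNCB+HY209 against sham (SE 0.21, 95% interval 0.14 to 1.07, adjusted p = 0.202) and 0.74 for DNCB against sham (SE 0.21, 0.28 to 1.21, adjusted p = 0.13). Both sham signals were close to the array medians, so background weighs on this difference.

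Macrophage and monocyte markers, 13 of 14 tested, had a mean log2 signal of 5.33 to 5.93 in DNCB+HY209, 5.51 to 6.49 in DNCB and 5.15 to 5.43 in sham skin. Their level and the Itgax signal were 6.18 and 5.22 on DNCB array 1, 6.49 and 4.77 on DNCB array 2, and 5.51 and 5.27 on DNCB array 3. All DNCB arrays exceeded both sham arrays in both measures, and the part of macrophage content in the Itgax values was not tested. In DNCB against sham 1 of the 13 markers rose by limma, where 1.37% of all genes did, and 0 fell. It was Ms4a7, a membrane protein of macrophages, by 1.82 (SE 0.37, adjusted p = 0.0474). By sign alone 11 were higher and 2 lower. Without overlap 8 were higher and 1, Mertk, lower (-0.66, SE 0.24, adjusted p = 0.23), where 23.3% and 11.2% of all genes were. None passed in DNCB+HY209 against sham, where 9 were higher and 4 lower. The differences were 1.06 for Ms4a7 (adjusted p = 0.203) and 0.88 for Cd68, a lysosomal protein of macrophages (SE 0.57, adjusted p = 0.39). The sham signals of Cd68 lay below the array medians. Between DNCB+HY209 and DNCB skin 0 passed and 12 of 13 were lower in DNCB+HY209, among them the complement gene C1qb at -0.76 (SE 0.28, adjusted p = 1).

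**Figure D3:**
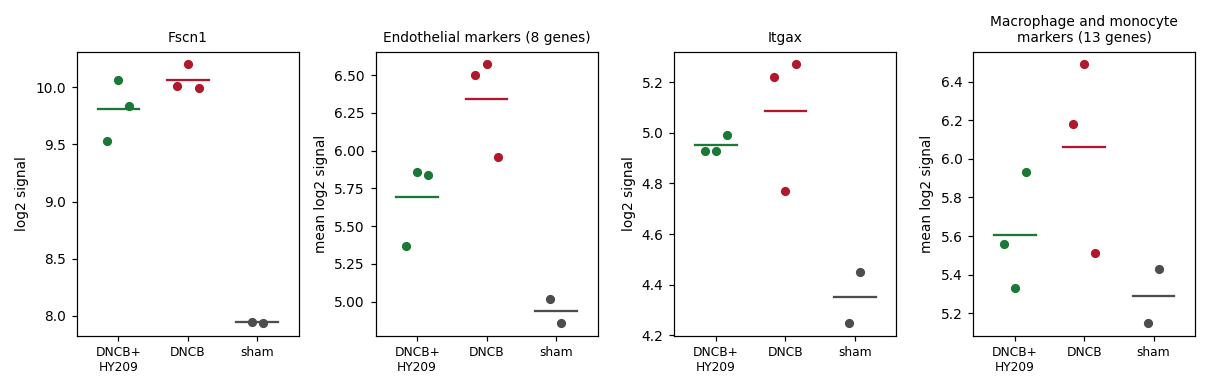
Log2 signal of Fscn1 and Itgax and the mean log2 signal of the 8 endothelial and 13 macrophage and monocyte markers on every array (points), with group means (lines); each panel has its own axis, which does not start at 0. Fscn1 and the endothelial markers are lowest on the sham arrays, and Itgax and the macrophage markers are higher on all DNCB arrays than on both sham arrays.

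Promoters of Fscn1 and Itgax are shown because these genes, with Cd86, stood higher on every DNCB-treated array than on both sham arrays. They are the 250 bases before the RefSeq start of each gene in GRCm38.p6, on the plus strand, chr5:142960105-142960354 for Fscn1 and chr7:128129300-128129549 for Itgax. Capitals mark matches, on either strand, to the cAMP response element TGACGTCA or its core TGACG, to the AP-1 site TGANTCA and to the PU-box GAGGAA.
Fscn1: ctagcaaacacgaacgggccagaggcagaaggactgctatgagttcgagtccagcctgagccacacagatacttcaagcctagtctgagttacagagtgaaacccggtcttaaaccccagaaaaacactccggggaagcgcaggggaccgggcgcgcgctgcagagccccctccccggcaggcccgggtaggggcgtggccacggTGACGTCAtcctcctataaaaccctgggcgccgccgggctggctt
Itgax: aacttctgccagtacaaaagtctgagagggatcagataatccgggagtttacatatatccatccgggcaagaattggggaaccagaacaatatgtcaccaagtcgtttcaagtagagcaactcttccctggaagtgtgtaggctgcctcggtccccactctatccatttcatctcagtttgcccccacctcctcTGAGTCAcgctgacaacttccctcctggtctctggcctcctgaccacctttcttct
The Fscn1 window holds the full cAMP response element, whose overlapping cores start 45 and 42 bases before the gene start and which 1.55% of 32851 promoter windows of this length hold. The core, alone or in the full element, was found in 17.8% of windows. The Itgax window holds an AP-1 match 56 bases before the start, as 6.75% of windows do, and no PU-box, which 23.3% hold. Of the 10 genes, 6 had a promoter in the table, and AP-1 matches also stood in those of Cd207 and Cd80. These are matches of letters, and no binding was measured here.

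Of the activation molecules, Cd86, the ligand through which dendritic cells engage CD28 on T cells, had 4.52, 4.60 and 4.52 in DNCB+HY209 skin, 4.40, 4.57 and 4.48 in DNCB skin and 3.99 and 4.13 in sham skin. The DNCB-treated arrays lay above both sham arrays and overlapped each other. The log2 difference was 0.48 for DNCB+HY209 against sham (SE 0.17, 95% interval 0.10 to 0.87, adjusted p = 0.203) and 0.42 for DNCB against sham (SE 0.17, 0.04 to 0.80, adjusted p = 0.269), neither past the threshold. Scaled to a common trimmed mean, these were 0.28 and 0.23. The second probe set of Cd86, low on all arrays, had 2.57 to 2.71 in DNCB+HY209, 2.48 to 2.73 in DNCB and 2.56 to 2.66 in sham skin.

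Cd40, the receptor through which T cells license dendritic cells and which B cells, keratinocytes and endothelium can also carry, was read differently by its 3 probe sets. The brightest, 1449473_s_at, had 5.06, 4.60 and 4.53 in DNCB+HY209 skin, 5.00, 4.57 and 4.95 in DNCB skin and 4.50 and 5.07 in sham skin. The groups overlapped, with log2 differences of -0.11 for DNCB+HY209 against DNCB (SE 0.23), -0.05 for DNCB+HY209 against sham (SE 0.26) and 0.06 for DNCB against sham (SE 0.26). The signs of both differences from sham changed under some of the alternatives tried. In each group the array with the lowest value on this probe set also had the lowest spike-in signal. With the spike-in signal as a covariate, Cd40 differed from sham by 0.36 in DNCB+HY209 and by 0.46 in DNCB, neither called. Without the arrays of lowest and highest spike-in signal these differences were 0.23 and 0.48. The part of the spike-in difference was not tested by a separate measurement.

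Probe set 1439221_s_at of Cd40 had 3.60, 3.31 and 3.76 in DNCB+HY209 skin, 4.29, 4.29 and 3.84 in DNCB skin and 3.52 and 3.48 in sham skin. The DNCB arrays lay above all others. In a fit of all probe sets its log2 difference was -0.59 for DNCB+HY209 against DNCB (SE 0.19, adjusted p = 1) and 0.64 for DNCB against sham (SE 0.21, adjusted p = 0.251), so neither passed, and it passed the filter through DNCB arrays 1 and 2 alone. The third, 1460415_a_at, lay below the median on all 8 arrays, at 3.62 to 4.11 in DNCB+HY209, 3.70 to 3.80 in DNCB and 4.0 to 4.13 in sham skin. On it all DNCB arrays lay below both sham arrays, the opposite of 1439221_s_at.

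The other activation and precursor genes stayed below the array median on all 8 arrays. Ccr7 had 2.97, 2.93 and 3.05 in DNCB+HY209 skin, 2.74, 2.99 and 3.06 in DNCB skin and 2.83 and 2.84 in sham skin. Cd83, a surface marker of mature dendritic cells, had 3.40, 3.29 and 3.45 in DNCB+HY209 skin, 3.29, 3.38 and 3.45 in DNCB skin and 3.52 and 3.37 in sham skin. Flt3, the receptor that drives dendritic cell development, had 3.87, 3.93 and 3.92 in DNCB+HY209 skin, 3.88, 4.03 and 4.05 in DNCB skin and 3.88 on both sham arrays. These 3 genes varied over the 8 arrays by 0.32, 0.22 and 0.18 log2 units, and their groups overlapped except that the DNCB+HY209 arrays of Ccr7 lay above both sham arrays, by values within this low range. Cd80, the partner of Cd86, had 4 probe sets, of which the brightest had 3.67, 3.55 and 3.42 in DNCB+HY209 skin, 3.88, 3.42 and 3.98 in DNCB skin and 3.66 and 3.59 in sham skin.

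In the fit without the filter none of these 4 genes passed in any comparison, with adjusted p of 0.569 or more. The 95% intervals of the log2 difference for DNCB against sham were -0.21 to 0.40 for Ccr7, -0.31 to 0.57 for Cd80, -0.39 to 0.25 for Cd83 and -0.25 to 0.45 for Flt3. A signal near the background of a probe set compresses differences, so these intervals bound the signals and not the transcripts.

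Over all genes tested, limma called 227 of 12420 in DNCB against sham, or 1.83%. Of the 5 genes of the set tested 1, Fscn1, rose and 0 fell. Groups did not overlap and DNCB was higher for Fscn1, Itgax and Cd86, 3 of 5, where this held for 23.3% of all genes. Their median log2 difference was 0.42, beside 0.15 for all genes. This median is the value of Cd86, which passed the filter through its higher groups, and the 5 genes below the filter are left out. Share and median therefore describe the genes tested and not the set.

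In DNCB+HY209 against sham, limma called 50 of 12420 genes, or 0.403%, and again 1 of the 5, Fscn1, rose and 0 fell. The same 3 genes were higher without overlap, as were 29.1% of all genes. The median log2 difference was 0.48, beside 0.20 for all genes. It is again the value of Cd86, so here too share and median describe only the genes tested. The median of all genes lay at 0.00 in DNCB against sham after quantile normalization, where Fscn1 differed by 1.87, and at -0.03 after scaling to a common trimmed mean, where it differed by 1.93.

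HY209 gel against vehicle in DNCB skin gave no call among the 5 genes by limma. Of all 12420 genes 0 passed, or 0%, with 161 at an unadjusted p under 0.05, and of the 5 genes 0 did so. Fscn1 differed by -0.25 (95% interval -0.71 to 0.20), Itgax by -0.14 (-0.55 to 0.28), Cd86 by 0.07 (-0.28 to 0.41), Cd40 by -0.11 (-0.63 to 0.42) and Epcam by 0.14 (-0.52 to 0.80). All 5 intervals include 0, and that of Fscn1 reaches -0.71, so a moderate difference would not have been detectable with these arrays. None of the 5 had groups without overlap, where 4.99% of all genes did.

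**Figure D4:**
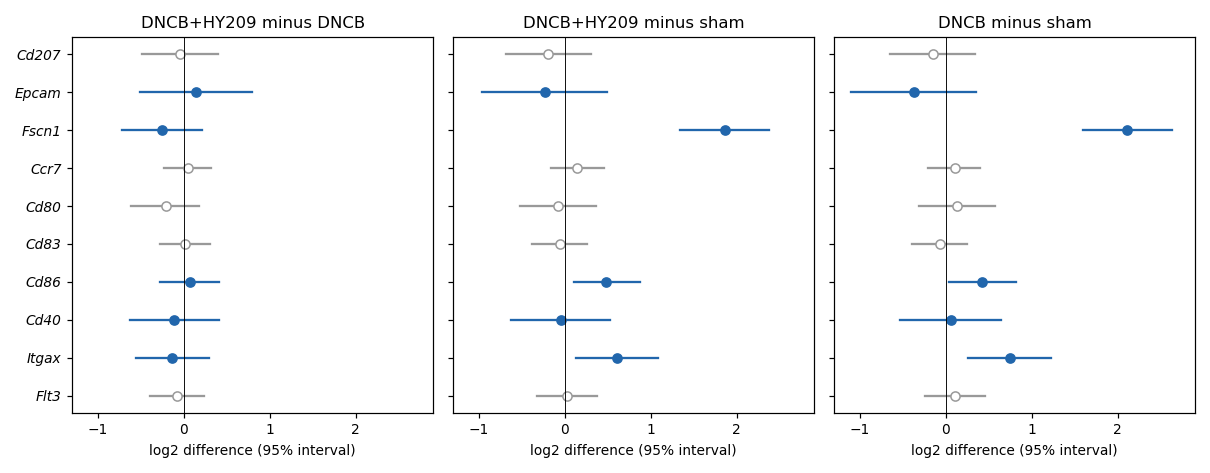
Log2 difference of each of the 10 genes with its 95% interval in the fit without the filter, for DNCB+HY209 minus DNCB, DNCB+HY209 minus sham and DNCB minus sham; filled blue points are genes that passed the filter and open grey points are those that did not. Each gene is shown by its brightest probe set. Fscn1 lies at 1.86 and 2.11 in the comparisons with sham, and all intervals of DNCB+HY209 minus DNCB include 0.

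Other genes of dendritic cell biology were taken as 3 lists, whose calls stand beside the 0.403% called among all genes in DNCB+HY209 against sham and the 1.83% in DNCB against sham. A gene low in sham skin could pass the filter through DNCB-treated arrays, so the list medians describe the genes tested and not the lists. Among 22 dendritic cell lineage and subset genes, 13 were tested and 0 rose or fell in any comparison. In DNCB against sham their median log2 difference was -0.26, beside 0.15 for all genes. Without overlap 5 of the 13 were lower and 3 higher there, where 11.2% of all genes were lower and 23.3% higher. Id2, a transcription regulator that Langerhans cells need and that epithelium also expresses, had 7.07 ± 0.77 (SD, n = 3) in DNCB+HY209, 6.64 ± 0.52 (n = 3) in DNCB and 8.60 ± 0.18 (n = 2) in sham skin. Its log2 difference was -1.53 in DNCB+HY209 against sham (SE 0.45, adjusted p = 0.161) and -1.96 in DNCB against sham (SE 0.45, adjusted p = 0.0712), with no overlap in either. Cd24a, a surface glycoprotein of some dendritic cells and of keratinocytes, differed by 0.87 in DNCB+HY209 against sham (SE 0.36, adjusted p = 0.243) and 1.14 in DNCB against sham (SE 0.36, adjusted p = 0.178). The subset markers Xcr1, Clec9a, Clec10a, Mgl2 and Itgae lay below the filter.

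Genes that maintain Langerhans cells, such as receptors for growth factors and for TGF-beta, were 16 in number, of which 13 were tested and 0 passed in any comparison. Their median log2 difference was 0.39 in DNCB+HY209 against sham and 0.62 in DNCB against sham, beside 0.20 and 0.15 for all genes. Csf2rb, the signalling chain of the GM-CSF receptor, had 5.48 ± 0.77 (SD, n = 3) in DNCB+HY209, 6.03 ± 0.75 (n = 3) in DNCB and 3.83 ± 0.22 (n = 2) in sham skin, with adjusted p of 0.17 and 0.0698 against sham, where both sham signals lay below the array medians. Tgfbr1, a receptor chain for TGF-beta, differed by 0.64 in DNCB+HY209 against sham (SE 0.26, adjusted p = 0.24), and by 0.29 without sham array 2. Csf1r, the receptor through which Il34 keeps Langerhans cells alive, differed by 1.07 in DNCB against sham (SE 0.41, adjusted p = 0.243). Its difference was 0.71 without sham array 1 and 1.43 without sham array 2. Csf1r, like Ccr2 below, is also counted among the macrophage and monocyte markers, so these lists share genes. Csf1 differed by -0.50 in DNCB+HY209 against DNCB (SE 0.28, adjusted p = 1), without overlap. Il34 itself lay below the filter.

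Of 29 genes of maturation and migration, 20 were tested. In DNCB against sham the median log2 difference was 0.74, beside 0.15 for all genes, and 1 rose and 0 fell. It was Cxcr4, a chemokine receptor that dendritic cells use on the way to lymph vessels and that many leukocytes and endothelial cells carry, with 4.74 ± 0.53 (SD, n = 3) in DNCB and 3.00 ± 0.49 (n = 2) in sham skin, a log2 difference of 1.74 (SE 0.34, adjusted p = 0.0423). Both sham signals of Cxcr4 lay below the array medians, so it passed the filter through DNCB-treated arrays and the size of its difference is uncertain. In DNCB+HY209 against sham 0 passed, with 1.45 for Cxcr4 (SE 0.34, adjusted p = 0.112) and 1.99 for Tslp, the keratinocyte cytokine that activates dendritic cells (SE 0.68, adjusted p = 0.202), whose sham signals also lay below the medians. In DNCB+HY209 against DNCB 0 of 20 passed and 17 were lower, with a median of -0.28 beside 0.03 for all genes. Ccr2, a chemokine receptor of monocytes and their dendritic progeny, differed by -0.50 (SE 0.23, adjusted p = 1) and Ccr6, which draws cells towards epithelium, by -0.27 (SE 0.16, adjusted p = 1), both without overlap. The CCR7 ligand gene Ccl19, and Ccl17 and Ccl22, lay below the filter.

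Costimulation genes of T cells were hardly measured. Of 8 costimulation receptors of T cells only Icos, Tnfrsf4 and Tnfrsf9 passed the filter, with 0 called in any comparison and 0.18 for Tnfrsf9 in DNCB against sham (adjusted p = 0.611), and Cd28, Ctla4 and Cd40lg did not pass it. Of 10 T cell markers 2 were tested and of 6 B cell markers 2 were tested, with 0 called. Ms4a1, the gene of the B cell marker CD20, differed by -0.80 in DNCB against sham (SE 0.49, adjusted p = 0.409). Cd22, a lectin of B cells, differed by -0.47 in DNCB+HY209 (adjusted p = 0.236) and -0.37 in DNCB (adjusted p = 0.345), and Cd3e, a chain of the T cell receptor complex, by -0.11 in DNCB+HY209 (adjusted p = 0.778), each against sham. All 6 suprabasal epidermis markers were tested and 0 were called, and their mean log2 signal of 8.33 to 10.81 in DNCB+HY209, 8.62 to 10.59 in DNCB and 6.94 to 9.02 in sham skin overlapped between groups. Flg, the filaggrin gene, had 7.70, 7.62 and 10.31 in DNCB+HY209 skin, 9.59, 9.51 and 7.20 in DNCB skin and 6.90 and 2.88 in sham skin, so its sham arrays lay far apart. Its difference from sham was 3.65 in DNCB+HY209 (adjusted p = 0.202) and 3.88 in DNCB (adjusted p = 0.18), and 1.64 and 1.87 without sham array 2. Dsg1b, a desmosomal cadherin, differed from sham by 1.88 in DNCB+HY209 (adjusted p = 0.173) and 2.27 in DNCB (adjusted p = 0.103).

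The genes whose profile over the 8 arrays came closest to each tested gene were named by the smallest root mean square difference of mean-centred log2 signals. For Fscn1 they were the phosphate transporter gene Slc20a1 at 0.193, Podxl, a sialomucin of vascular endothelium, at 0.202, and Helz2 at 0.216, beside a root mean square deviation of 0.879 for Fscn1 itself. For Itgax they were Tmem214 at 0.0971, Cyb561a3 at 0.123 and the actin-binding thymosin gene Tmsb10 at 0.131, beside 0.332 for Itgax. For Cd86 they were Ndufb7, Med26 and Polrmt, for Cd40 Rep15, Mark1 and Sfmbt1, and for Epcam Tmbim1, Rbks and Stxbp3, at 0.0578 to 0.135. With 8 arrays in 3 groups many genes share a profile, and these are descriptions.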

How the data were processed

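Total RNA of frozen skin was measured on 8 Affymetrix mouse arrays, 1 per sample. The authors deposited 1 log2 signal for each probe set and array, a scale judged by the range of the values. Affymetrix Expression Console and MAS5 are the tools in the submitters' processing notes, and normalization between arrays is not stated there. The labels name the 430A array, but with 45101 probe sets the table matched the larger array of that generation, whose annotation was used.

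Of these, 64 were controls, 34945 had 1 gene symbol, 932 several and 9160 none listed. Probe sets above the array median on at least 2 of the 8 arrays were kept, and the brightest represented its gene, which gave 12420 genes. Groups were compared with limma 3.58.1 in R 4.3.3 (lmFit, eBayes with an intensity trend) in 1 two-sided fit of the 8 arrays, with p-values adjusted by Benjamini-Hochberg across the genes tested and a threshold of 0.05. Genes below the filter were fitted with all genes unfiltered, and single probe sets in a fit of all probe sets with 1 symbol. SE is the moderated standard error. The fit was also run on simulated data with independent noise for each gene and array. Such data cannot speak to shifts that a whole array shares. The number of arrays limits precision. Every gene of the set was named. From each further list at most 4 called genes, or else the 2 largest differences without overlap, were named per comparison. For each tested gene of the set the 3 genes of nearest profile were named. Other names, such as genes below the filter, were chosen after their values were seen. The members and lists were chosen with earlier results of these data known. Arrays were compared as unpaired. Deviations from the group means correlated across genes at 0.12, 0.28 and -0.60 for same-numbered DNCB+HY209 and DNCB arrays. For differently numbered arrays of these groups they ran from -0.66 to 0.61. With 3 arrays per group these correlations cannot decide whether replicate numbers pair the samples. Alternatives were other scalings, filters, probe set choices and fits, each array left out, and, added after the data were seen, the spike-in level as a covariate, a fit without its lowest and highest arrays, and group means of the list genes without each sham array. Figures were drawn with matplotlib 3.10.9.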

Additional observations from a re-analysis of the deposited data

How the results depend on the processing

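Over 20 alternatives, Fscn1 stayed higher than in sham skin in all, and was called in 11 for DNCB+HY209 and in 18 for DNCB. Its difference from sham ran from 1.10 to 2.00 in DNCB+HY209 and from 1.20 to 2.17 in DNCB. In DNCB+HY209 against sham, the number of the 5 genes called was 0 with probe sets averaged, with only the groups compared, with the replicate block (Fscn1 1.87, adjusted p = 0.0925), with the spike-in covariate and without the arrays of extreme spike-in signal. With 1 array left out it was 0 or 1, in DNCB against sham also 0 or 1, and in DNCB+HY209 against DNCB 0 throughout. In DNCB against sham it was 0 without the arrays of extreme spike-in signal.

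Of all genes, DNCB against sham called 227, but 35 with the replicate block, 16 with the spike-in covariate, 7 without the arrays of extreme spike-in signal and 15 to 352 with 1 array left out (40 and 15 without sham arrays 1 and 2, 31 and 30 without DNCB arrays 1 and 2, 352 and 66 without DNCB+HY209 arrays 1 and 2). DNCB+HY209 against sham called 50, but 97 after quantile normalization, 78 scaled to a common trimmed mean, 24 with probe sets averaged, 16 with only the groups compared, 12 with the replicate block, 8 with the spike-in covariate, 8 without the arrays of extreme spike-in signal and 9 to 287 with 1 array left out (287, 9 and 12 without DNCB+HY209 arrays 1, 2 and 3, 18 and 32 without DNCB arrays 1 and 3, 9 without either sham array). DNCB+HY209 against DNCB called 0 throughout. The cause of these shifts was not tested.

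Uncalled differences that changed sign were those of Cd40 and Epcam. Cd40 differed by -0.13 in DNCB against sham after scaling to a common trimmed mean, and by 0.02 centred on the median, 0.00 with probe sets averaged, 0.36 with the spike-in covariate and 0.23 without the arrays of extreme spike-in signal in DNCB+HY209 against sham. With 1 array left out Cd40 ran from -0.34 to 0.23 in DNCB+HY209 against sham and from -0.23 to 0.34 in DNCB against sham, and Epcam from -0.42 to 0.00 in DNCB+HY209 against sham and from -0.04 to 0.38 in DNCB+HY209 against DNCB. Itgax and Cd86 kept their direction in all and were called in none. Whether replicate numbers pair the samples was not settled. For genes near the array median the signal over background is the limit.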
